A study of Mus musculus with 10 samples.

Results

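The chaperone genes Hspb7 and Dnajc11 were followed in the testes of adult mice whose mothers had received testosterone or solvent in late pregnancy. They were chosen by the RefSeq transcript that the array design gives for a probe, NM_013868 for Hspb7 (Entrez gene 29818) and NM_172704 for Dnajc11 (Entrez gene 230935). These are 2 of the 45 genes that could be named on the array, and 1 probe was found for each, A_51_P346445 and A_51_P398235. Each of these probes was printed at 10 spots per array, so that every level below is a mean over up to 10 spots.

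Molecular chaperones keep other proteins from aggregating and help them to fold. Hspb7 encodes a small heat shock protein, a member of the family that holds unfolding proteins in a soluble state without using ATP, and it is best known from heart and skeletal muscle, where it binds the actin crosslinker filamin C. Dnajc11 encodes a J protein, a member of the family that hands clients to Hsp70 and drives its ATPase cycle. The Dnajc11 protein sits at the mitochondrial outer membrane and is found with the complexes that shape the cristae of the inner membrane. Testis makes its own set of chaperones during sperm formation, and members of both families have germ cell forms.

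The samples were C57BL/6J testes at 3 months of age. In the testosterone group the mothers had been injected under the skin each day, from day 14 to day 19 of pregnancy, with 2.5 mg/kg testosterone, and in the control group with sesame oil and benzyl benzoate alone. Each group held 5 samples, given as biological replicates in the labels, with 1 array per sample. The injections went to the dams and not to the sons, and dam and litter are not among the sample details used here, so the tests take the 5 samples as independent. Whole testis was used, and in such bulk RNA fewer cells of a type and less RNA per cell cannot be told apart.

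RNA of each testis was separated by immunoprecipitation. Supernatant RNA (Sup) was amplified and labelled with Cy3 and precipitated RNA (IP) with Cy5, and both were put on the same array. The antibody is not named in the labels, so the IP/Sup ratio is given as a ratio of fractions and not as the level of an RNA modification. Dyes were not swapped, so fraction and dye cannot be told apart.

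The arrays lay on 3 slides in 2 scans. Control replicates 1 to 4 were on slide 1, and control replicate 5 shared slide 2 with testosterone replicates 1 to 3. Slide 3, which was scanned apart from the others and is called the second scan here as a name only, with no order in time meant, carried testosterone replicates 4 and 5 and 0 controls. Outside slide 2, group and slide therefore cannot be told apart. The second scan was dimmer as a whole. The 75th percentile of the processed signal, to which levels were scaled, was 1125 and 1157 there in Sup and 1119 and 1155 in IP, against 1421 to 1763 and 1443 to 1783 on the 8 other arrays. In IP, 62.0% and 64.6% of spots were well above background in the second scan, against 71.7% to 76.2% in the first.

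Both genes were measurable in both fractions of every testis. All 10 spots of each probe were well above background on all 10 arrays in both channels, and none was saturated. Their spots were of modest brightness. The median raw brightness of an array's Hspb7 spots ran from 103 to 218.5 in Sup and from 61.5 to 152 in IP, over a local background of 12.5 to 17.25. For Dnajc11 it ran from 100.75 to 135.75 in Sup and from 90.25 to 152.5 in IP. The lowest of these, Hspb7 in IP on testosterone replicate 4, was 3.84 times its local background.

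The first comparison asked whether the Sup level of each gene differed after prenatal testosterone. Hspb7 had a lower mean in the testosterone group, but the difference did not pass the test. Its processed signal in Sup was 840, 1232, 1054, 740 and 888 in control replicates 1 to 5 and 589, 787, 723, 363 and 360 in testosterone replicates 1 to 5. The 2 lowest values were those of the second scan, and control replicate 2 was the highest. Before scaling, the groups overlapped, since testosterone replicate 2 lay above control replicate 4. Relative to the 75th percentile of each array, controls had an Hspb7 log2 level of -0.88 ± 0.289 (SD, n = 5) and the testosterone group one of -1.38 ± 0.265 (SD, n = 5). All 5 testosterone arrays were below the control mean, and 3 of them were below the lowest control. The difference was -0.49 ± 0.167 (SE), or 1.41-fold lower, with a 95% confidence interval of -0.86 to -0.13. Its limma p was 0.0119 before and 0.460 after Benjamini-Hochberg adjustment over the 44692 probes tested.

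Without the second scan the difference of Hspb7 in Sup was -0.31 ± 0.168 (SE), with an interval of -0.68 to 0.069 (limma adjusted p = 0.985). Of the 3 remaining testosterone arrays, replicates 2 and 3 at -1.09 and -1.21 lay within the control range of -1.25 to -0.49, and replicate 1 at -1.27 just below it. Control replicate 2 set the upper end of that range. With that array left out as well, the difference was -0.21 (limma adjusted p = 0.882). Within slide 2, which had 1 control, it was -0.28. Background correction by normexp, run on the raw median brightness with an offset of 50, also gave -0.28. This normexp setting also left out the deposited detrending and dye normalization. It thus differs from the main values in more than the background correction, and its parts were not tested apart.

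The Sup level of Dnajc11 was close in the groups. Its processed signal was 592, 500, 733, 653 and 686 in control replicates 1 to 5 and 557, 674, 642, 359 and 361 in testosterone replicates 1 to 5. The second scan again gave the lowest values. After scaling, controls had a log2 level of -1.46 ± 0.216 (SD, n = 5) and the testosterone group one of -1.47 ± 0.175 (SD, n = 5), and the lowest of the 10 was control replicate 2 at -1.79. The difference was -0.016 ± 0.133 (SE), with an interval of -0.31 to 0.27 (limma adjusted p = 0.958), so a change of up to 1.24-fold in the lower direction lies inside the interval. Without the second scan its sign turned, to 0.11 ± 0.138 (SE) with an interval of -0.20 to 0.42, and within slide 2 it was -0.064.

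In Sup, neither gene passed at the limma threshold of 0.05 on the adjusted p (0 of 2), and of all tested probes 0% did, whether the second scan was in or not. At an unadjusted p under 0.05 there was 1 of 2, Hspb7, where 10.8% of all tested probes were past that mark and 6.58% were so in the lower direction. In the first scan alone there was 0 of 2, against 3.73% of all probes.

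**Figure D1:**
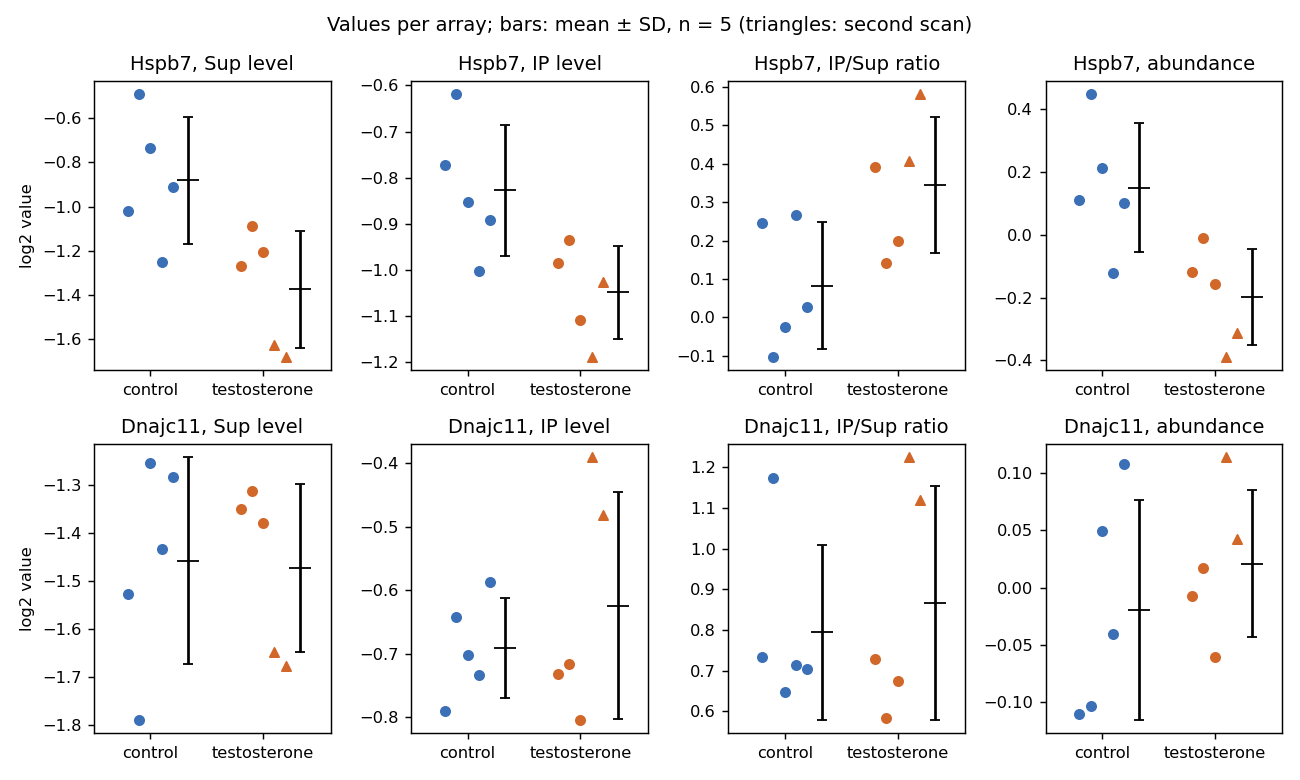
Log2 values of Hspb7 (upper row) and Dnajc11 (lower row) on each array: Sup and IP level relative to the array's 75th percentile, IP/Sup ratio relative to the array median, and abundance, with controls in blue, testosterone in orange and the mean ± SD (n = 5) beside each group. The 5 testosterone values of Hspb7 lie below the control mean in Sup, IP and abundance and above it in the ratio, the triangles of the second scan are apart from the other testosterone arrays in several panels, and vertical scales differ between panels.

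The second comparison was the same in the IP fraction. The processed signal of Hspb7 in IP was 1009, 1142, 987, 890 and 909 in control replicates 1 to 5 and 729, 886, 787, 491 and 568 in testosterone replicates 1 to 5. Before scaling these groups did not overlap, with 886 as the highest testosterone value and 890 as the lowest control, as was the case in the lower direction for 9.02% of the 42296 probes tested in IP that had a value on every array. The 75th percentile, given above, was also lowest on the 2 dimmest of these arrays. After scaling the groups overlapped. Controls then had a log2 level of -0.83 ± 0.143 (SD, n = 5) and the testosterone group one of -1.05 ± 0.101 (SD, n = 5). The difference of -0.22 ± 0.0981 (SE), or 1.17-fold lower, had an interval of -0.44 to -0.0059. It did not pass, with a limma adjusted p of 0.365 over 44384 probes. On the first scan alone it was -0.18 ± 0.109 (SE), with an interval of -0.43 to 0.062. With control replicate 2 left out as well it was -0.13, and within slide 2 it was -0.12. It was -0.097 with normexp and -0.40 with scaling to the spike-ins, which moved the median difference of all probes by -0.18.

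Dnajc11 in IP had processed signals of 997, 1123, 1095, 1072 and 1122 in control replicates 1 to 5 and of 869, 1031, 972, 854 and 828 in testosterone replicates 1 to 5. Here the second scan, though lowest before scaling, became highest once each array was set against its 75th percentile. The log2 levels of testosterone replicates 4 and 5 were then -0.39 and -0.48, above all 5 controls, which lay between -0.79 and -0.59. Testosterone replicates 1 to 3, at -0.73, -0.72 and -0.80, lay in the lower part of the control range or, for replicate 3, just below it. The group means were -0.69 ± 0.0791 (SD, n = 5) and -0.62 ± 0.178 (SD, n = 5), a difference of 0.067 ± 0.103 (SE) with an interval of -0.16 to 0.29 (limma adjusted p = 0.764). The sign turned without the second scan, to -0.059 ± 0.0918 (SE) with an interval of -0.26 to 0.14, and within slide 2 it was -0.16.

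In IP, 0 of the 2 genes passed limma's test, and 0.00225% of all tested probes did, whether the second scan was in or not. At an unadjusted p under 0.05 there was 1 of 2, Hspb7, against 13.5% of all probes and 7.79% in the lower direction. In the first scan alone there was 0 of 2, against 9.12%.

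The third comparison took the IP/Sup ratio, relative to the median probe of each array. For Hspb7 the log2 ratio was 0.25, -0.10, -0.026, 0.27 and 0.027 in control replicates 1 to 5 and 0.39, 0.14, 0.20, 0.41 and 0.58 in testosterone replicates 1 to 5. All 5 testosterone arrays were above the control mean and 3 were above the highest control. The group means were 0.082 ± 0.166 (SD, n = 5) and 0.34 ± 0.176 (SD, n = 5). The difference of 0.26 ± 0.139 (SE), with an interval of -0.038 to 0.56, did not pass (limma adjusted p = 0.794 over 41424 probes). This value is also the test of whether the difference of Hspb7 in Sup was unlike that in IP. Leaving the second scan out gave 0.16 ± 0.151 (SE), control replicate 2 left out as well 0.12, slide 2 alone 0.22, and normexp 0.14.

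For Dnajc11 the log2 ratio was 0.73, 1.17, 0.65, 0.71 and 0.70 in control replicates 1 to 5 and 0.73, 0.58, 0.67, 1.22 and 1.12 in testosterone replicates 1 to 5. Control replicate 2 and the 2 arrays of the second scan stood at 1.12 to 1.22, and the other 7 arrays, of both groups, at 0.58 to 0.73. On those 3 arrays the Sup level of Dnajc11 was also the lowest of the 10. The group means were 0.79 ± 0.214 (SD, n = 5) and 0.87 ± 0.286 (SD, n = 5), and the difference was 0.072 ± 0.167 (SE), with an interval of -0.29 to 0.43 (limma adjusted p = 0.929). Leaving the second scan out gave -0.13 ± 0.159 (SE), with control replicate 2 left out as well -0.038, and within slide 2 it was -0.041. For the ratio, 0 of the 2 genes and 0% of all tested probes passed limma's test, whether the second scan was in or not. At an unadjusted p under 0.05 there was 0 of 2, against 6.04% of all probes, and 0 of 2 in the first scan alone, against 3.15%.

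The fourth comparison was of abundance, the log2 sum of both fractions after each was scaled to its own 75th percentile. Because each fraction enters with equal weight, this is no measure of the whole transcript pool. Hspb7 had the values 0.11, 0.45, 0.21, -0.12 and 0.10 in control replicates 1 to 5 and -0.12, -0.0093, -0.16, -0.39 and -0.31 in testosterone replicates 1 to 5. Control replicate 4 was at the level of the testosterone arrays of the first scan, while the other 4 controls were above all 5 testosterone arrays. The difference was -0.35 ± 0.116 (SE), or 1.27-fold lower, with an interval of -0.60 to -0.095. It did not pass, with a limma adjusted p of 0.315 over 47647 probes. It was -0.24 ± 0.122 (SE) without the second scan, with an interval of -0.52 to 0.029, then -0.17 with control replicate 2 left out as well, -0.20 within slide 2 and -0.18 with normexp.

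The abundance of Dnajc11 ranged from -0.11 to 0.11 in controls and from -0.061 to 0.11 after testosterone, so that the groups covered nearly the same values. Controls averaged -0.020 ± 0.0959 (SD, n = 5) and the testosterone group 0.021 ± 0.0646 (SD, n = 5). The difference of 0.041 ± 0.0784 (SE) had an interval of -0.13 to 0.21 (limma adjusted p = 0.784), which leaves changes of up to 1.16-fold upward inside it. In the first scan alone it was 0.0024 ± 0.0845 (SE), and within slide 2 it was -0.12. In abundance 0 of the 2 genes passed limma's test, against 0.0063% of all probes, or 0.0021% in the first scan alone. At an unadjusted p under 0.05 there was 1 of 2, Hspb7, against 14.9% of all probes and 9.59% in the lower direction. Without the second scan there was 0 of 2, against 7.29%. The 4 comparisons use the same 10 arrays and share the controls, so they are not separate observations of a gene.

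**Figure D2:**
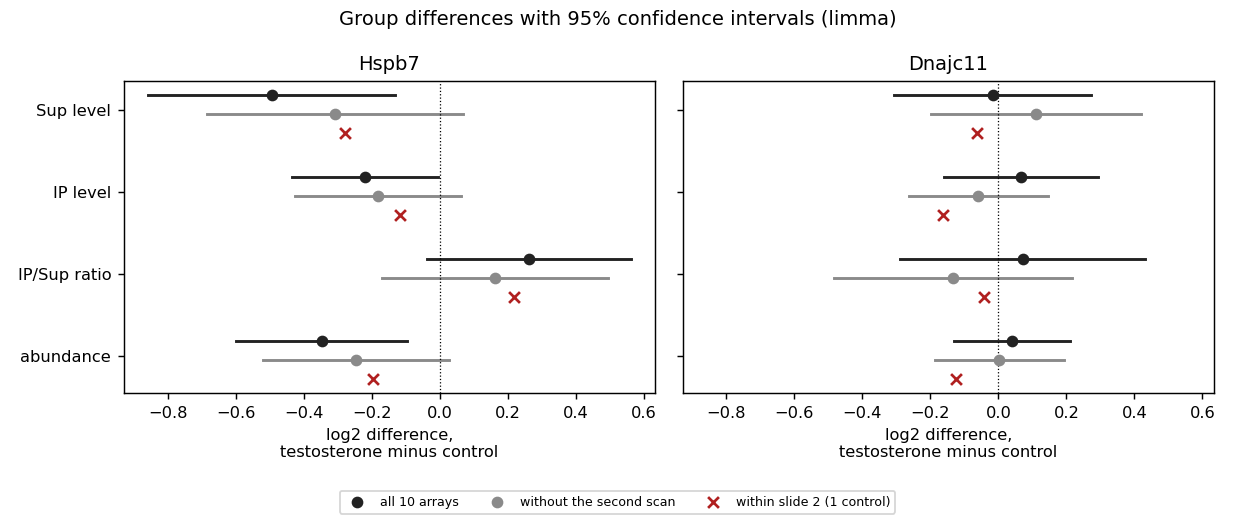
Difference between the groups (testosterone minus control, log2) for Hspb7 and Dnajc11 in Sup, IP, IP/Sup ratio and abundance. Dots with lines are limma estimates with 95% confidence intervals over all 10 arrays (black) and over the 8 arrays of the first scan (grey), and red crosses are the values within slide 2, which had 1 control. For Hspb7 the Sup estimate moves from -0.49 to -0.31 without the second scan, and for Dnajc11 every interval holds 0.

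Because each probe was printed 10 times, the spread within an array could be set beside the spread between arrays. Spots of 1 array are technical repeats and were not counted as replicates. Within an array the Hspb7 spots had a log2 SD of 0.034 to 0.089 in Sup and of 0.060 to 0.17 in IP, over 6 to 10 spots that were not marked as outliers. The median SD in Sup was 0.071 in controls and 0.069 after testosterone, which gives a mean over spots a standard error of about 0.024 and 0.023. Between the arrays of a group the SD was 0.289 and 0.265. In Sup the arrays of a group thus differed in Hspb7 by more than the error of reading the spots. Each array was of another testis, but testis, slide and scan are mixed in this spread. Over the 3 testosterone arrays of the first scan alone the SD was 0.091. In IP the SDs of Hspb7 between arrays were smaller, at 0.143 and 0.101, against median spot SDs of 0.11 and 0.092. A mean over spots there had a standard error of about 0.036 and 0.031.

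For Dnajc11 in Sup the median spot SD was 0.087 in controls and 0.072 after testosterone, below the SDs between arrays of 0.216 and 0.175. Over the 3 testosterone arrays of the first scan alone the SD between arrays in Sup was 0.033. In IP the control arrays differed no more than single spots did. Their SD of 0.0791 was below the median spot SD of 0.091, while a mean over spots had a standard error of 0.029. After testosterone the SD between arrays in IP was 0.178, against a median spot SD of 0.11. Over the testosterone arrays of the first scan alone it was 0.047.

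Each of the 10 Hspb7 spots was lower on average after testosterone, with differences of -0.59 to -0.43 in Sup and of -0.38 to -0.082 in IP. With the second scan left out all 10 were still lower, at -0.38 to -0.14 in Sup and -0.30 to -0.097 in IP. Of the Dnajc11 spots, 7 of 10 were lower in Sup with all arrays, and 0 of 10 without the second scan, where they ranged from 0.051 to 0.25. In IP 3 of 10 were lower with all arrays and 8 of 10 without the second scan. The spots share their array and its RNA, so these counts show only that no single spot carried the values.

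**Figure D3:**
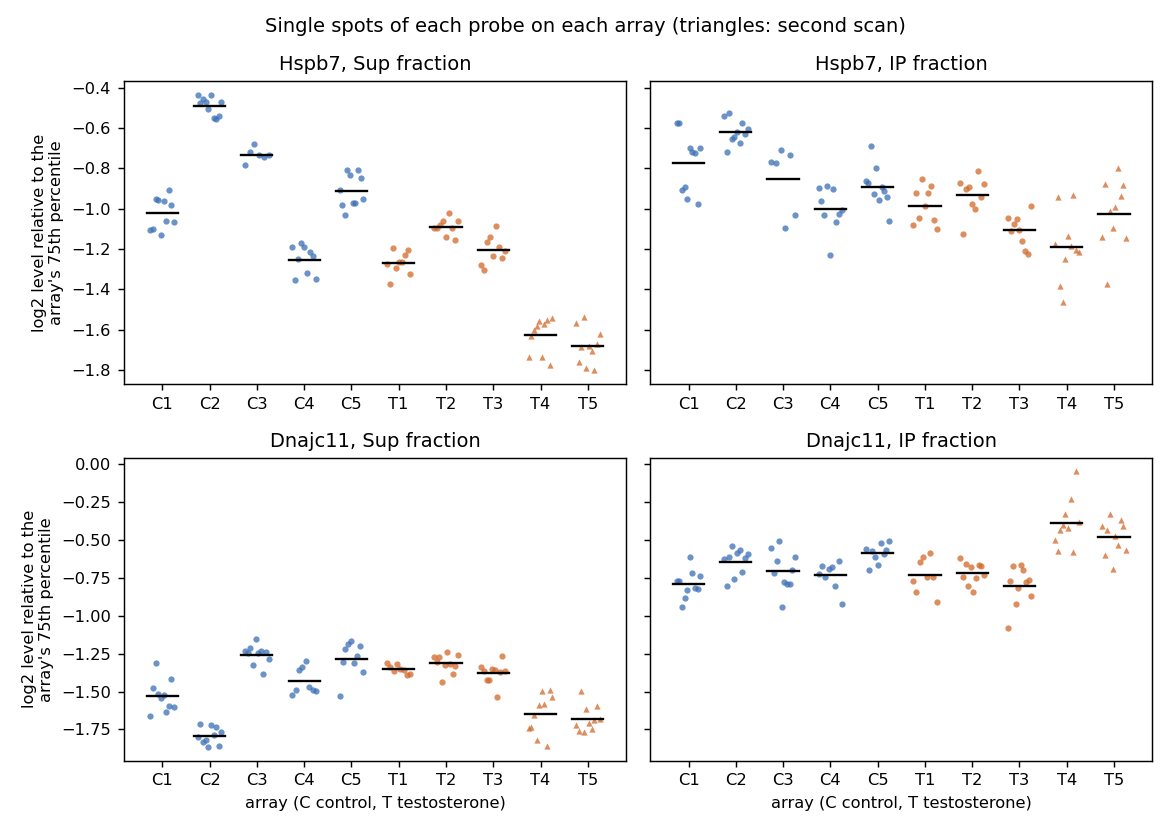
Log2 level of every spot that was not marked as an outlier, relative to the array's 75th percentile, for Hspb7 and Dnajc11 in Sup and IP, on control arrays C1 to C5 (blue) and testosterone arrays T1 to T5 (orange, triangles for the second scan), with a black line at each array's mean. In Sup the spots of an array lie close together and many arrays apart, with C2 highest for Hspb7 and lowest for Dnajc11. T1 to T3 lie together for Dnajc11 in Sup.

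The last comparison placed each gene on the IP or the Sup side of the array median, over all 10 testes. Dnajc11 was on the IP side on 10 of 10 arrays, with a mean log2 ratio of 0.83 ± 0.0834 (SE) and an interval of 0.65 to 1.01, or 1.78-fold (limma adjusted p = 4.28e-07). This is under the 2-fold bound that a call also required. Hspb7 lay near the median, with a log2 ratio of 0.21 ± 0.0696 (SE) and an interval of 0.063 to 0.36, or 1.16-fold (limma adjusted p = 0.0114). By both conditions 0 of the 2 genes were called, against 40.7% of all tested probes, with 19.5% of the tested on the IP side. In the first scan alone it was also 0 of 2, against 40.4%. On those arrays the log2 ratio was 0.73 ± 0.0794 (SE) for Dnajc11 and 0.16 ± 0.0754 (SE) for Hspb7, and the limma adjusted p of Hspb7 was then 0.0639. With the normexp setting the log2 ratio of Hspb7 was 0.020 (limma adjusted p = 0.698) and that of Dnajc11 0.38. Centred on the calibration spike-ins, which per the labels were added to both fractions in equal amount, Hspb7 was at 0.47 and Dnajc11 was at 1.09 and past the 2-fold bound. The 22 spike-in probes measured on all arrays ranged from -3.52 to 1.40 relative to the array median, the scale on which Hspb7 was at 0.21 and Dnajc11 at 0.83, with 5 of them above Dnajc11 and 7 above Hspb7. Both genes lay within the range of these spike-ins.

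**Figure D4:**
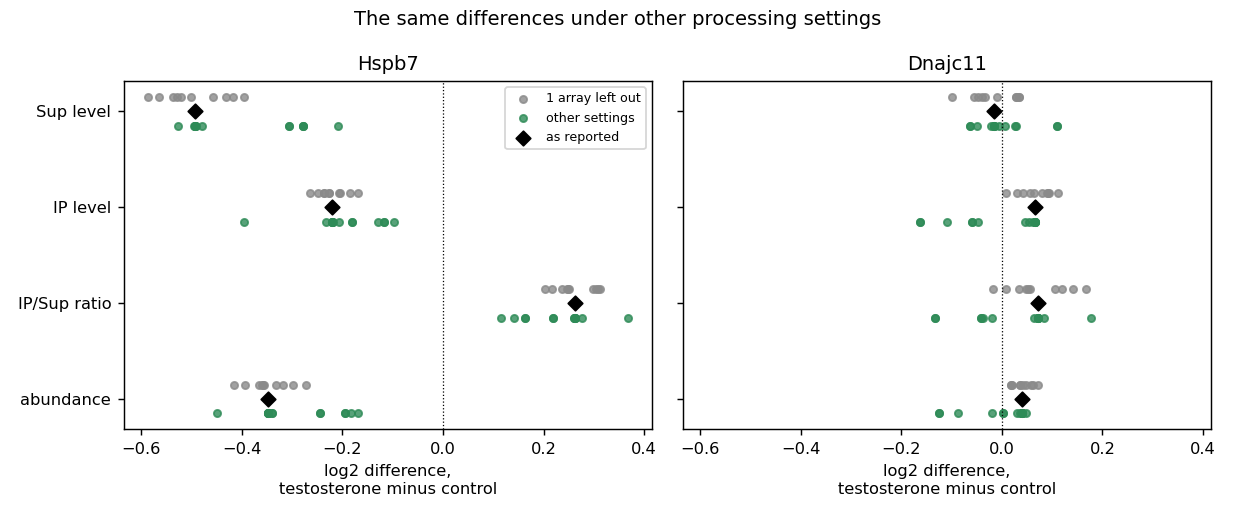
The differences between the groups (testosterone minus control, log2) for Hspb7 and Dnajc11, as reported (black diamonds), with 1 array left out at a time (grey) and under the other processing settings (green). Every Hspb7 value keeps its side of 0 in all 4 measures, while the Dnajc11 values fall on both sides of 0 in each measure. Some settings cannot move the estimate or repeat that of another setting, so the dots are not separate checks.

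The likeness of other named genes was taken over 20 values, the Sup and IP levels of the 10 arrays, each gene centred on its own mean. This keeps the gap between a gene's IP and Sup levels, so the measure holds that gap as well as the variation between arrays. Of 36 genes compared, the nearest to Hspb7 was Mzb1, a chaperone-like protein of the endoplasmic reticulum known from antibody-secreting B cells, at a root mean square difference of 0.15 on the log2 scale. Then came Hyal3, a hyaluronidase gene, at 0.21, and Spats1, a spermatogenesis-associated gene, at 0.23. The median over the 36 genes was 0.58. For Dnajc11 the nearest were Trp53rka at 0.17, Nup50, a nuclear pore protein, at 0.18, and Ppara, which encodes a lipid-sensing transcription factor, at 0.22, with a median of 0.71. Hspb7 and Dnajc11 themselves differed by 0.44, and 11 of the 36 genes were closer to Hspb7 and 10 to Dnajc11. The mean log2 IP/Sup ratios of the genes nearest to Hspb7 were 0.22, 0.14 and -0.0011, with Hspb7 at 0.21. Those of the genes nearest to Dnajc11 were 0.89, 0.999 and 1.01, with Dnajc11 at 0.83. All of these values share the same arrays and scaling, and the measure is a description without a test.

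None of the other chaperones in the lists looked up could be followed by name. Of 76 further genes in 6 lists, of small heat shock proteins, J proteins, Hsp70 and its partners, Hsp90 and chaperonins, partners of Dnajc11 at the mitochondrial contact site and partners of Hspb7 in muscle, 0 had a probe with a name here. The same held for 26 markers of germ, Sertoli, Leydig, peritubular, macrophage and blood cells. The tissue label was therefore not checked against its markers, and whether the cell makeup of the testes moved with these genes was not tested. In the RefSeq gene order of assembly GRCm38.p6 both genes lie on the same chromosome, with 138 protein-coding genes between them.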

How the data were processed

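Per the labels, RNA of 5 control and 5 testosterone testes was hybridised in 2 colours, Sup in Cy3 and IP in Cy5. Spot values are the authors' output of Agilent Feature Extraction, version 11.0.1.1 per the submitters' processing notes. Per the file headers, processed signal is an intensity after background subtraction, detrending and dye normalization. Median brightness is an uncorrected intensity, and other deposited columns are flags with a value of 0 or 1. The deposited value table holds log2 values; in its 44264 rows it equals the log2 IP signal minus a constant per array of unknown origin. It holds 0 of the 2 probes and served only for a count. Its column medians were 1.47, 2.19, 2.22, 1.89 and 2.25 for control and 2.03, 1.88, 1.26, 1.98 and 1.38 for testosterone replicates 1 to 5.

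Control spots and spots marked as outliers (348 to 694 per array) were dropped, and the log2 values of a probe averaged over its spots. Levels are relative to the 75th percentile of a channel, ratios to the array median. Probes were tested if well above background on at least 5 of 10 arrays, a probe counting on an array with at least 50% of its spots, in that channel, in both channels for the ratio and in either for abundance. The group comparisons are limma fits (3.58.1, R 4.3.3) over all probes with Benjamini-Hochberg adjustment at 0.05. The functions were tested on simulated data. Named were both members and the 3 nearest named genes of each. Names come from accessions matched to RefSeq (45 of 50 probes with an accession). No coordinates are given, since the array design names another build. Slides and scans come from the file headers. Genes, lists and tests were chosen with earlier results of these data known. Replicate numbers were not taken as pairs. The p-values rest on the spread between the arrays of a group, in which testis, slide and scan are mixed. Precision is limited by the number of arrays. Matplotlib 3.10.9 drew the figures.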

Additional observations from a re-analysis of the deposited data

Results flagged for a closer look

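In the group of 5 controls, the log2 IP/Sup ratio of Dnajc11 in control replicate 2, 1.17, stood apart from the other controls, which lay between 0.65 and 0.73. On the same array the Sup level of Dnajc11 was the lowest of the 10 arrays, at -1.79, and that of Hspb7 the highest, at -0.49, while the IP level of Dnajc11, at -0.64, lay within the range of the other controls and that of Hspb7, at -0.62, was the highest of the 10. All 10 spots of both probes on this array were well above background. Of 16 groups of values checked this was the only one so far out, and about 1 in 20 would be by chance. Control replicate 2 also had the lowest median correlation with the other arrays, at 0.980. Testosterone replicates 4 and 5, of the second scan, came next at 0.982 and 0.983, and the remaining arrays were at 0.988 to 0.993. Whether this bears on the Dnajc11 ratio was not tested.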

How the results depend on the processing

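For Hspb7, all 24 alternatives of each of the 4 group differences kept the direction, and 0 of 96 passed at an adjusted p under 0.05. The 24 are not separate checks of direction. Changing the filter, blocking on the replicate number or using trended and robust eBayes cannot move the estimate. The scan as a block repeats the estimate without the second scan, and the slide as a block that within slide 2. Settings that leave out arrays share the remaining ones. The range was -0.59 to -0.21 in Sup, -0.40 to -0.097 in IP, 0.12 to 0.37 for the ratio and -0.45 to -0.17 for abundance. Leaving out 1 array gave -0.59 to -0.40 in Sup, without control replicate 4 and 2. For Dnajc11 also 0 of 96 passed, but directions turned; the cause was not tested. Its Sup difference was 0.027 with normexp, 0.0068 with quantile normalization, 0.11 without the second scan or with the scan as a block, 0.027 with control replicate 2 left out too, and -0.099 to 0.035 with 1 array left out. Its IP difference was -0.11 with spike-in scaling, -0.059 without the second scan or with the scan as a block, -0.047 with control replicate 2 left out too, and -0.16 within slide 2 or with the slide as a block. Its ratio difference was -0.020 with normexp, -0.13 without the second scan or with the scan as a block, -0.038 with control replicate 2 left out too, -0.041 within slide 2 or with the slide as a block, and -0.018 to 0.17 with 1 array left out. Its abundance difference was -0.088 with spike-in scaling, -0.12 within slide 2 or with the slide as a block, -0.019 with the second scan and control replicate 2 left out, and 0.017 to 0.072 with 1 array left out. Spike-in scaling moved the median difference of all probes by -0.18 in IP, 0.10 for the ratio and -0.11 for abundance; relative to that median Dnajc11 was at 0.085, 0.091 and 0.060 and Hspb7 at -0.20, 0.28 and -0.30. On the IP side Dnajc11 passed the 2-fold bound with spike-in centring alone, at 1.09.

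The count of all probes that passed was 0 in Sup, but 2 with spike-in scaling, with the slide as a block and within slide 2. In IP it was 1, but 0 with spike-in scaling, with the scan as a block and with the second scan and control replicate 2 left out. It was 3 with no filter, with a filter on all 10 arrays and with trended and robust eBayes. The slide as a block gave 20, and leaving 1 array out gave 0 to 1. In the authors' value table it was 471, of which 448 were lower and 23 higher. That table holds another set of probes, and its values carry a constant per array of unknown origin. Why its count differs was not tested. In abundance it was 3, all of them lower. It was 1 with quantile normalization, no filter, a filter on all 10 arrays and without the second scan. Trended and robust eBayes gave 2, and the slide as a block gave 4. It was 0 with the scan as a block and with the second scan and control replicate 2 left out. With 1 array left out it was 0 to 2. Normexp also gave 3, but 1 of these was lower and 2 were higher. On either side of the median 16849 probes passed, and 10335 with normexp.

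Deviations of same-numbered samples correlated above 0.1 for 3 of 5 numbers (-0.055 to 0.22 over the 5), where pairing was to be taken only if all 5 did; whether the numbers mark a shared origin is not given in the labels. With the replicate number as a block, 0 probes passed in each of the 4 group comparisons, and the adjusted p was 0.356, 0.331, 0.731 and 0.213 for Hspb7 in Sup, IP, ratio and abundance. The block for the scan rests on the first scan, and that for the slide on slide 2 with its lone control, which is assumed to vary like the other arrays. The exclusion of control replicate 2 was added after the data were seen.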
